A study of Mus musculus with 14 samples.

Results

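The Slc31a1 locus was examined in mouse regulatory T cells, the Foxp3-expressing T cells that restrain immune responses, from which Slc31a1 had been deleted. The members were the copper transporter genes Slc31a1 and Slc31a2, taken as a window at chr4:62170001-62320000 (mm39), within which Slc31a1 was placed near 62278900 to 62310000. Beside it, the flank chr4:62320001-64000000, which holds Rgs3, was described. The members were chosen by position, not by a measured value, but with earlier results of these data known. Of 309136 peaks in 10 lists, 10 lay in the window and 397 in the flank.

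Control cells came from Foxp3YFPcre;wt mice and knockout cells from Foxp3YFP-Slc31a1△;wt mice, so both groups carried a YFP allele at Foxp3, named with Cre for the controls, and the labels call the animals chimeras. Cells were sorted by FACS and 140000 cells entered each sample. Histone marks were profiled by CUT&Tag, in which an antibody brings a transposase to chromatin carrying a mark so that the fragments around it can be sequenced. H3K27ac had 3 control and 3 knockout libraries, H3K27me3 had 2 and 2, and 4 IgG samples were not analysed here. The labels give neither age nor sex, do not say which exons of Slc31a1 were removed, and tie the samples to numbered chimeras but not to single animals, so the p-values below speak of the spread among samples only. The same chimera number can stand behind both marks, but libraries are numbered within each mark. In both genotypes chimera number 2 gave H3K27ac library 1 and H3K27me3 library 2, and chimera number 1 gave H3K27me3 library 1. Libraries of the same number in different marks are therefore not from the same chimera number. No annotation of mm39 was used, so the regulatory T cell markers, the other copper genes and the extent of the deletion were not analysed here.

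Slc31a1 encodes CTR1, the high-affinity importer that brings copper across the plasma membrane, where it is passed to chaperones and on to copper enzymes. Slc31a2 encodes CTR2, a related protein of endosomes and lysosomes that is known as a regulator of CTR1 and of intracellular copper. H3K27ac is found at promoters and enhancers in use. H3K27me3 is deposited by Polycomb complexes on silent chromatin. In the order of protein-coding genes on the RefSeq assembly GRCm38.p6, Slc31a2 is followed by Fkbp15 and then by Slc31a1. Fkbp15, which encodes an FK506-binding-protein family member of the endosomal system, lies on the opposite strand and overlaps Slc31a1. An H3K27ac peak at the start of Slc31a1 therefore cannot be told apart from one at the start of Fkbp15. Rgs3, which encodes an activator of the GTPase function of G protein alpha subunits, is the 10th protein-coding gene after Slc31a1, and 9 genes lie between them, among them Cdc26, Prpf4, Alad and Pole3.

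The 250 bases before each member's annotated start are shown because the only H3K27ac region of the window found in every list spans the stated Slc31a1 start. They are the plus strand of RefSeq assembly GRCm38.p6, at chr4:62286179-62286428 for Slc31a2 and chr4:62360451-62360700 for Slc31a1. These positions belong to another build than the peaks. Capitals mark a CCAAT box (ATTGG on this strand) and a GC box (GGGCGG) in Slc31a1, and in Slc31a2 a match to the core of the metal response element (TGCACNC or TGCGCNC), the motif known for the metal-responsive factor MTF1.
Slc31a2: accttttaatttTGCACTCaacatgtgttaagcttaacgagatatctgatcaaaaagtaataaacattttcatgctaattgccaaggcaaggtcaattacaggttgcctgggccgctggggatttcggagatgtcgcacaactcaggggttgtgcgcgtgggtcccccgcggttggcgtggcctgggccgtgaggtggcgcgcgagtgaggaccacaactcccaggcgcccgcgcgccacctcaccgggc
Slc31a1: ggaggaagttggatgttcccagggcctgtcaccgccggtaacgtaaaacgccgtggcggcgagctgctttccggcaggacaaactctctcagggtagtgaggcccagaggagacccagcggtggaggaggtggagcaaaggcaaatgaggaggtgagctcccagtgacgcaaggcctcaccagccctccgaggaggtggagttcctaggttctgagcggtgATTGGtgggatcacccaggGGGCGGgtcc
In Slc31a1 the CCAAT box spans bases 29 to 25 and the GC box bases 10 to 5 before the start. In Slc31a2 the metal response element core spans bases 238 to 232 before the start. All motifs were searched on both strands and none of the matches overlap. Among 32544 promoters of the same length, 33.8% held a CCAAT box, 33% a GC box and 21.5% a metal response element core. Slc31a1 had no match to that core in its 250 bases, and Slc31a2 had no CCAAT or GC box. G and C made up 62.8% of the Slc31a1 sequence and 56.0% of the Slc31a2 sequence, against a median of 52.4% over all promoters. CpG dinucleotides numbered 13 in Slc31a1 and 18 in Slc31a2, against a median of 6.

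H3K27ac was called around the start of Slc31a1 in every library, and over the stated start itself in 3 of 3 controls and in knockout 1. The 10 peaks of the window merged into 3 regions, and the region at chr4:62277811-62279622, which spans the stated start, was the only one found in all 6 H3K27ac lists. Controls 1 to 3 had 1 peak each there, of 1803, 1065 and 1359 bases. Knockout 1 had 1 peak of 1683 bases, knockout 2 had a pair of peaks of 604 and 629 bases on either side of the start, and knockout 3 had 1 peak of 307 bases. The widths of knockouts 2 and 3 were outside those of the controls unless the 2 peaks of knockout 2 are added, and knockout 1 lay inside them. Relative to the stated start, the summit lay at -4 bases in both control 1 and knockout 1 and at -646 bases in knockout 3, whose peak ended before the gene began.

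**Figure D1:**
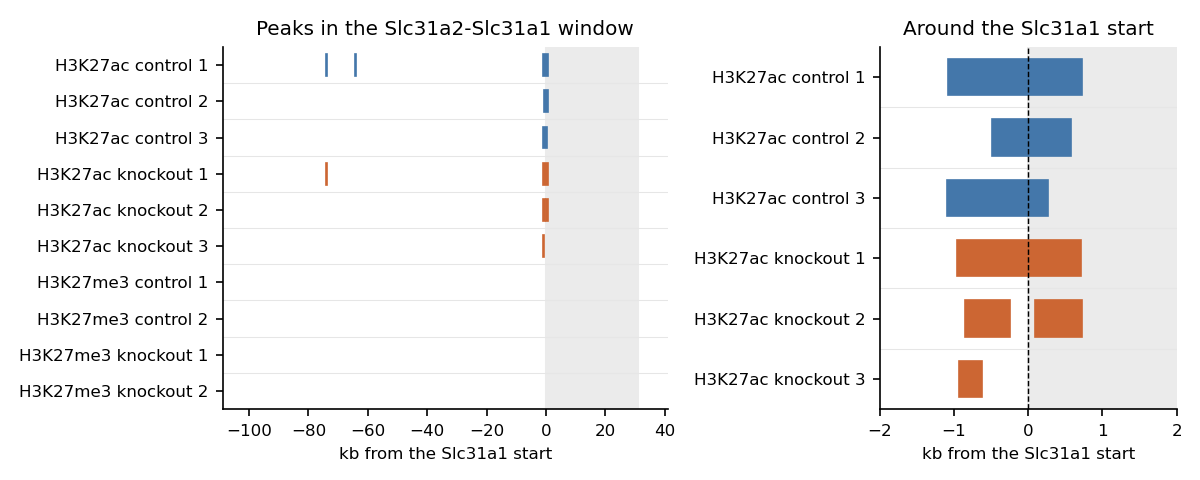
Peaks of each library by distance in kb from the Slc31a1 start, for the whole window with both marks (left) and within 2 kb of the start for H3K27ac (right); each bar is 1 peak at its true width, blue for controls and orange for knockouts, and the grey area is Slc31a1. Every H3K27ac list has a peak within 2 kb of the start, those of knockout 2 lying on either side of it and that of knockout 3, 307 bases wide, before it, and no H3K27me3 list has a peak in the window.

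The other regions of the window were held by few lists and were low in height. The region at chr4:62204753-62205220, had a peak of 388 bases in control 1, with its summit at -74073 bases from the Slc31a1 start, and one of 396 bases in knockout 1. Their heights, the summit pileup over the genome-wide background, were 15.6 and 12.1, and their −log10 p was 8.36 and 12, against 8.56 and 8.54 for the peaks of the same libraries at the Slc31a1 start. The region at chr4:62214660-62214972 had a peak of 313 bases in control 1 alone, with a height of 4.86. These were the only other peaks between the start of the window and Slc31a1, the side on which Slc31a2 and Fkbp15 lie. No peak was assigned to Slc31a2, for which no mm39 position was used. On GRCm38.p6 the 250 bases before the start end at 62286428 for Slc31a2 and at 62360700 for Slc31a1. The summits at -74073 bases in control 1 and -74017 in knockout 1 lie about as far from the Slc31a1 start as Slc31a2 starts on that build. Whether this spacing holds on mm39 was not tested. Inside Slc31a1, H3K27ac was confined in these lists to the part of the start region that reaches into the gene, and no further peak was called along it.

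H3K27ac peaks covered 2504, 1065 and 1359 bases of the window in control libraries and 2079, 1233 and 307 in knockout libraries. The groups overlapped, with the lowest value in knockout 3 and the highest in control 1. The control mean was 1643 ± 760.3 bases and the knockout mean 1206 ± 886.3 (SD, n = 3 each). The difference of -436.3 bases was within the spread (two-sided exact permutation test, p = 0.5, where 0.1 is the smallest value that 3 against 3 libraries allow). It turned to 13.3 bases without knockout 3. Within Slc31a1 itself, 723, 573 and 270 bases were covered in controls and 717, 629 and 0 in knockouts. Means were 522.0 ± 230.8 and 448.7 ± 391.0 bases (SD, n = 3 each; exact permutation p = 0.8), and the sign of the difference changed without control 1 (27.2 bases) and without knockout 3 (151.0 bases).

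The start region was high in fragments but stood little above the local background that the caller used. Whether that background came from IgG or from the library itself is not given. The fragment pileup and the local background behind each H3K27ac peak were read back from the authors' fold and −log10 p, and height is the pileup at the summit divided by the library's genome-wide background. That genome-wide level is inferred, not given by the authors. It was taken as the lowest local background read back in each list. Height in the region of the Slc31a1 start, at the highest summit of each list, was 64.6, 34.5 and 41.2 in controls and 66.6, 35.1 and 12.1 in knockouts. Knockout 1 was just above the control range, knockout 2 within it and knockout 3 below it. These summits lay at different places, and that of knockout 3, at -646 bases, belonged to a peak that did not reach the start. The local background was 41.0, 13.0 and 10.8 times the genome-wide level in controls and 41.3, 22.6 and 3.74 times in knockouts at those summits. The authors' fold was low, from 1.55 to 3.71 over the 7 peaks of the region. A peak of height 64.6 in control 1 had a −log10 p of 8.56, which ranked it at the 19.4th percentile of its own list. The peaks of controls 2 and 3 ranked at the 40.8th and 64.5th percentile, and those of the knockouts between the 0.497th and the 21.5th.

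Across the 13106 regions with a peak in all 6 H3K27ac lists, heights were compared by limma on log2 values with Benjamini-Hochberg adjustment. At the Slc31a1 start the log2 change, knockout minus control, was -0.45 (SE 0.369, adjusted p = 0.719), which did not pass the threshold of 0.05. With the library number as a block the adjusted p was 0.013 (limma). By number, only knockout 3 lay below its control, at 12.1 against 41.2 for control 3. Without knockout 3 the change was 0.06 (adjusted p = 0.985, limma), so the blocked value rests on that pair. The next region present in every list, chr4:62325534-62328017, lies just beyond the window. Its height was 100.7, 57.5 and 65.9 in controls and 103.0, 62.7 and 43.3 in knockouts, with a log2 change of -0.03 (SE 0.203, adjusted p = 0.976 by limma). At both places library 1 was the highest of its genotype and knockout 3 the lowest of all 6 libraries.

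H3K27me3 had no peak in the window in any of the 4 lists, control or knockout. Peaks of this mark left a gap around the window of 3935 kb in control 1, 321.5 kb in control 2, 751.6 kb in knockout 1 and 319.7 kb in knockout 2. The first peak after the window came 129.8 kb beyond its end in control 2 and 129.1 kb in knockout 2. Control 1 and knockout 1 had their first peak 559.3 and 559.5 kb beyond it. The H3K27me3 lists differed widely in length, with 7512 and 43945 peaks in controls and 36436 and 57728 in knockouts, and control 1 was the shortest. A list without a peak shows that the caller found no enrichment, not that the mark was at 0.

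The flank carried far more of both marks than the window, and in sum the genotypes did not separate there. H3K27ac covered 148705, 161033 and 163854 bases in controls and 159103, 178285 and 151969 in knockouts. The values overlapped, at 157864 ± 8056 and 163119 ± 13610 bases (SD, n = 3 each; exact permutation p = 0.7), and the sign of the difference turned without knockout 2 (-2328 bases). H3K27me3 covered 3624 and 21914 bases in controls and 10765 and 28880 in knockouts. These also overlapped, at 12769 ± 12933 and 19822 ± 12809 bases (SD, n = 2 each; exact permutation p = 0.667, with 0.333 the smallest that 2 against 2 allow). The sign of that difference turned without control 1 (-2092 bases), without knockout 2 (-2004 bases) and when bases were taken per Mb under the peaks of each list (-235.5). Nowhere in window and flank did a base lie under both marks within 1 genotype.

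Much of the H3K27ac of the flank sat in broad blocks that both genotypes shared. By mean −log10 p over the 6 lists, the 3 strongest regions found in every list were chr4:62542959-62583515, chr4:63286173-63325021 and chr4:63475545-63481722. In the first, 36872, 37100 and 35363 bases were covered in controls and 38240, 40355 and 39005 in knockouts. Its height was 182.3, 188.7 and 212.3 in controls and 196.6, 199.3 and 168.6 in knockouts, and the log2 change of 0.07 (SE 0.163, adjusted p = 0.926 by limma) did not pass. In the second, heights of 134.4, 146.6 and 173.9 stood against 153.5, 177.0 and 138.6, with a log2 change of 0.16 (SE 0.180, adjusted p = 0.812 by limma). In the third, heights of 73.3, 78.1 and 89.6 stood against 85.0, 93.3 and 74.5, with a log2 change of 0.18 (SE 0.166, adjusted p = 0.751 by limma). In each of these 3 regions the heights of the 2 genotypes overlapped. The covered bases of the first region did not, being higher in every knockout than in every control. Covered bases were not tested by region.

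**Figure D2:**
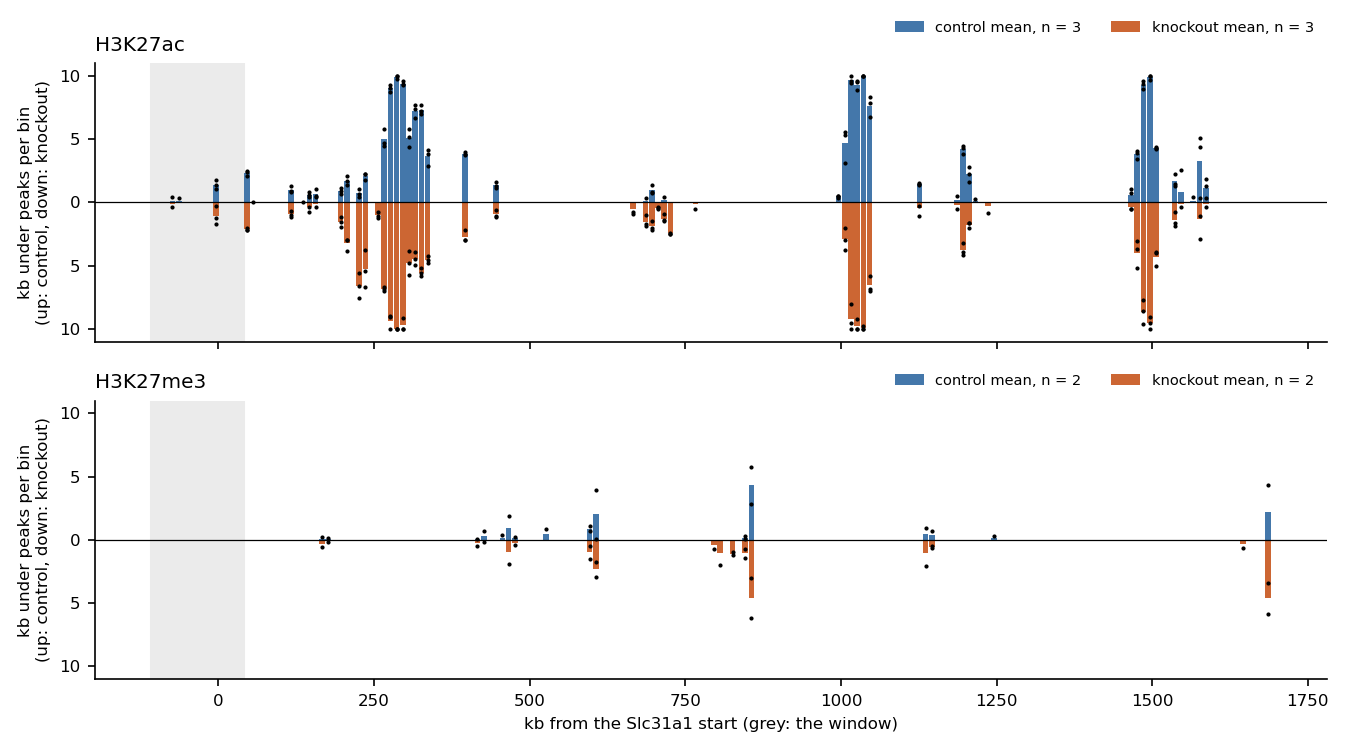
Kilobases under peaks in each 10 kb bin of window and flank against the distance of the bin from the Slc31a1 start in kb, for H3K27ac (top) and H3K27me3 (bottom); bars are means of controls (upward, blue) and knockouts (downward, orange), points are single libraries with a covered base, and grey marks the window. The bars mirror each other over most of the flank, and knockout bars are the longer ones in, among others, the bins beginning 221.1 kb, 231.1 kb and 721.1 kb after the start.

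Presence of H3K27ac differed by genotype at 6 places in the flank and at none in the window. Of 74 merged regions in window and flank, 24 had a peak in all 6 lists. Knockout lists alone, all 3 of them, held a peak in 5 regions (6.76%), against 0.809% of 37573 regions in the genome. Control lists alone, again all 3, held one in 1 region (1.35%), against 2.66% in the genome. The lists held 27986 to 32012 peaks in controls and 21326 to 28289 in knockouts, and covered 42.3 to 43.3 Mb and 37.7 to 47.2 Mb. The 5 knockout regions fell in 2 stretches, 3 at 222.2 to 258.1 kb and 2 at 701.1 to 727.4 kb after the Slc31a1 start. With only the strongest 75% of the peaks of each list, 3 regions were found in knockouts only and 2 in controls only.

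The regions of knockouts only were of uneven strength. The widest was chr4:63006307-63008944, with 2388, 2483 and 2469 bases covered in knockouts 1 to 3, heights of 40.0, 30.9 and 30.4 and a −log10 p of 60.8, 48.6 and 49.6. At chr4:62501113-62503520, knockouts covered 2408, 2396 and 1906 bases, with heights of 34.5, 34.1 and 35.8. These were the regions of highest −log10 p among the 5. At the genome-wide background of the control lists, the smallest height that passes was worked out as 4.51 to 5.27. The lowest height at both regions was more than 5 times that. The local background of the knockouts there was 2.76 to 4.66 times the genome-wide level, and a higher background raises the height needed for a call. At chr4:62513642-62515605 the heights were 16.8, 21.0 and 18.3, and at chr4:62536966-62538243 they were 14.9, 18.7 and 13.7. The weakest was chr4:62979986-62980705, where 575, 388 and 479 bases were covered and heights were 13.7, 7.55 and 5.83. The value of knockout 3 there was near the smallest height that passes at the genome-wide background of the control lists. The region of controls only, chr4:63325584-63326330, had heights of 19.4, 16.8 and 23.7 and lay next to the second of the 3 strong regions above.

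Coverage by H3K27ac rose in knockouts in 4 bins of the flank and fell in 1. Each 10 kb bin was tested by limma on log2(covered bases + 100) over all 19295 bins of the genome with a covered base in at least 3 lists, and adjusted p-values are Benjamini-Hochberg over all of them. Of 42 bins tested in window and flank, 4 were higher (9.52%), against 0.58% in the genome, and 1 was lower (2.38%), against 2.25%. The 4 include bins without any control coverage, which passed the filter through the knockouts alone. Values of the 2 genotypes did not overlap in 12 bins that were higher in knockouts (28.6%), against 9.64% in the genome, and in 7 that were lower (16.7%), against 12.4%. Both counts include bins without any coverage in the other genotype. Those passed the filter through 1 genotype alone, so their values could not overlap. The shares in the genome rest on the same filter. The median log2 change was -0.09 over the 42 bins and -0.05 over all tested, and 16 of the 42 changes were above 0. The 1 bin of the window, which holds the Slc31a1 start, had 1803, 1065 and 1359 covered bases in controls and 1683, 1233 and 307 in knockouts, with a log2 change of -0.61 (SE 0.5, adjusted p = 0.621).

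The bin at chr4:62500001-62510000 rose from 391, 673 and 1048 covered bases in controls to 6575, 7544 and 5612 in knockouts, a log2 change of 3.10 (SE 0.299, adjusted p = 0.0158 by limma). Every knockout was above every control, and the lowest knockout covered more than 5 times the bases of the highest control. The next bin, chr4:62510001-62520000, rose from 1766, 2223 and 2217 to 3770, 6718 and 5415 bases, a log2 change of 1.26 (SE 0.218, adjusted p = 0.0389). At chr4:62530001-62540000 the controls had 0 covered bases and the knockouts 1052, 1233 and 794. Its log2 change of 3.45 (SE 0.520, adjusted p = 0.0318) depends on the 100 bases added, since a group at 0 sets no fold. The same holds for chr4:63000001-63010000, with 0 in every control and 2388, 2483 and 2469 bases in knockouts, a log2 change of 4.65 (SE 0.477, adjusted p = 0.0171). Both bins reached the 3 covered lists needed for the test only through the knockouts, so their p-values are not independent support. The bin that fell, chr4:62590001-62600000, had 7679, 6661 and 7405 bases in controls and 4459, 4971 and 3885 in knockouts, a log2 change of -0.72 (SE 0.0935, adjusted p = 0.027).

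Most of these calls were lost when 1 library was left out. Without control 1 only the bin from 62500001 was called (adjusted p = 0.0405, limma), and without control 2, control 3, knockout 2 or knockout 3 none was, while without knockout 1 there were 5 higher and 3 lower. The counts over all 19295 bins moved too. They were 3 higher and 5 lower without control 1, 0 higher and between 0 and 67 lower in the 4 fits with no call here, and 245 higher and 974 lower without knockout 1. With the library number as a block, the bin from 62500001 was called (adjusted p = 0.0316, limma) and the other 4 were not, with adjusted p from 0.0519 to 0.0697. Over all bins the block left 3 higher and 29 lower. In each fit without 1 library the 5 bins kept the sign of their change. The covered bases of the genotypes do not overlap in these bins, so the sign could hardly turn and says nothing of stability. The log2 change of the bin from 62500001 lay between 2.79 and 3.41 in those fits.

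Read by peak, the first gained stretch ran from 221.1 kb after the Slc31a1 start over 40 kb. It is given as a description, having been chosen after its values were seen. At chr4:62500001-62540000 controls held 2, 3 and 5 peaks and 2157, 2896 and 3265 covered bases, and knockouts 7, 7 and 8 peaks and 11397, 15495 and 11821 bases. The means were 2773 ± 564.2 and 12904 ± 2254 bases (SD, n = 3 each), 4.65 times as much in knockouts. The longest peak there was 1766 to 1943 bases in controls and 3509 to 4312 in knockouts. The second stretch, chosen in the same way, was chr4:62940001-63010000, which began 661.1 kb after the start. Controls held 753, 1803 and 1173 covered bases there and knockouts 9104, 9047 and 6405. The means were 1243 ± 528.5 and 8185 ± 1542 bases (SD, n = 3 each), 6.59 times as much in knockouts. No H3K27me3 peak of either genotype lay in these 2 stretches or in the 5 bins called.

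**Figure D3:**
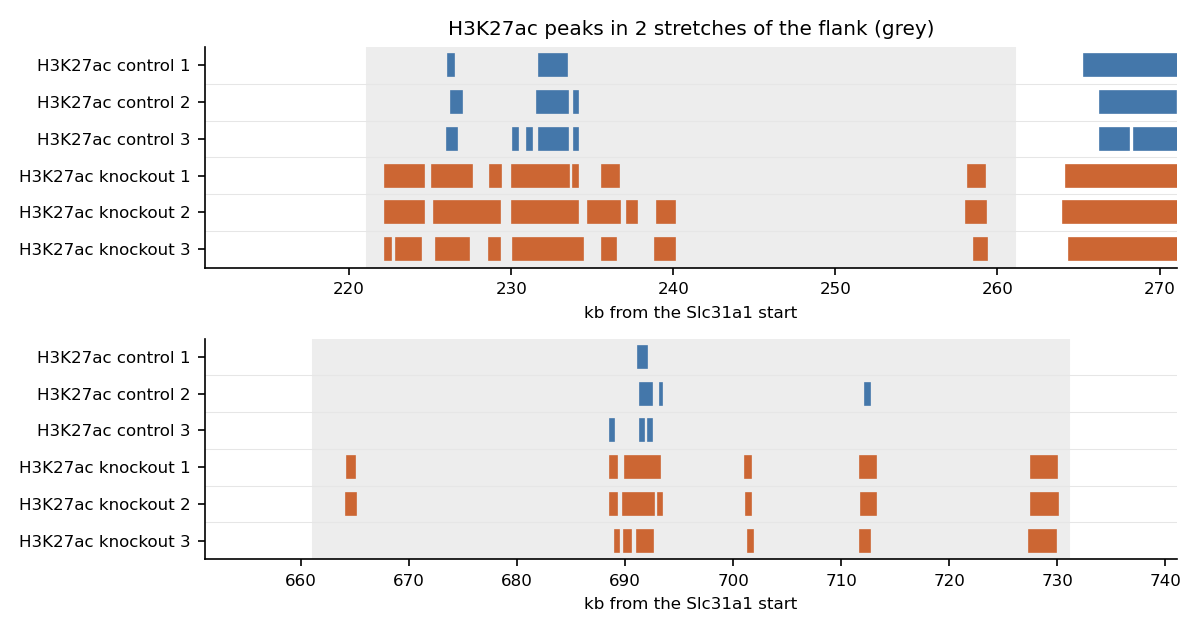
H3K27ac peaks of each library in the 2 stretches (grey) and 10 kb on either side, by distance from the Slc31a1 start in kb; each bar is 1 peak at its true width, blue for controls and orange for knockouts. Knockouts hold 7, 7 and 8 peaks in the upper stretch where controls hold 2, 3 and 5, and the last peak of the lower stretch is in all 3 knockouts and no control.

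Summit height, which measures how tall a peak is where covered bases measure how wide, passed the test at 2 regions present in every list. Of the 24 such regions in window and flank, 1 was higher in knockouts (4.17%), against 0.0534% in the genome, and 1 was lower (4.17%), against 0.298%. Heights of the 2 genotypes did not overlap in 4 regions that were higher in knockouts (16.7%), against 4.39% in the genome, and in 8 that were lower (33.3%), against 11.4%. At chr4:62504025-62508240, inside the first stretch, heights were 11.5, 10.1 and 9.0 in controls and 48.6, 48.3 and 40.0 in knockouts. The means were 10.2 ± 1.23 and 45.6 ± 4.89 (SD, n = 3 each), 4.48 times as high in knockouts. Height is that of the highest summit of each list in the region, so the summits compared can lie at different places. Controls covered 391, 673 and 594 bases of this region and knockouts 3095, 4076 and 2705. The log2 change of 2.28 (SE 0.194, adjusted p = 0.000707 by limma) was the largest rise among the 13106 regions. It passed without each library in turn, with adjusted p between 6.12e-06 and 0.0136. The local background at these summits was 1.81, 1.55 and 1.22 times the genome-wide level in controls and 3.2, 3.11 and 3.86 times in knockouts.

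The peak that was lower, chr4:62673236-62677429, began 394.3 kb after the Slc31a1 start. Its heights were 82.0, 89.6 and 102.4 in controls and 50.9, 41.7 and 30.4 in knockouts, with means of 91.3 ± 10.3 and 41.0 ± 10.3 (SD, n = 3 each). Every control was above every knockout, and the log2 change was -1.07 (SE 0.158, adjusted p = 0.0164 by limma). This call was lost without control 2 (adjusted p = 0.165), control 3 (0.14) or knockout 2 (0.128), while the log2 change stayed at -1.01, -1.0 and -1.08. Over all 13106 regions, 0, 1 and 1 were called lower in those 3 fits. The 10 kb bin that holds it had 3706, 3832 and 3968 covered bases in controls and 2965, 2938 and 2211 in knockouts, a log2 change of -0.52 (SE 0.114) that did not pass for covered bases (limma adjusted p = 0.06).

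Near misses lay beside the calls. In the second stretch, chr4:62968704-62972352 had heights of 10.4, 9.10 and 9.48 in controls and 22.3, 16.7 and 16.6 in knockouts, a log2 change of 1.05 (SE 0.203, adjusted p = 0.0516 by limma) with no overlap between genotypes. It was the 10th largest rise of the 13106 regions. With the library number as a block its adjusted p was 1.44e-05, and that of chr4:62598270-62606612, which begins in the bin that fell and had a log2 change of -0.54 (SE 0.148, adjusted p = 0.142 by limma), was 7.18e-06. For chr4:62968704-62972352 the SE was 0.203 with and without the block. The block raised the regions called here from 1 higher and 1 lower to 4 and 4, and over the genome from 7 higher and 39 lower to 1196 and 961. With so many calls over the genome, the blocked values are not read as support for a change here.

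**Figure D4:**
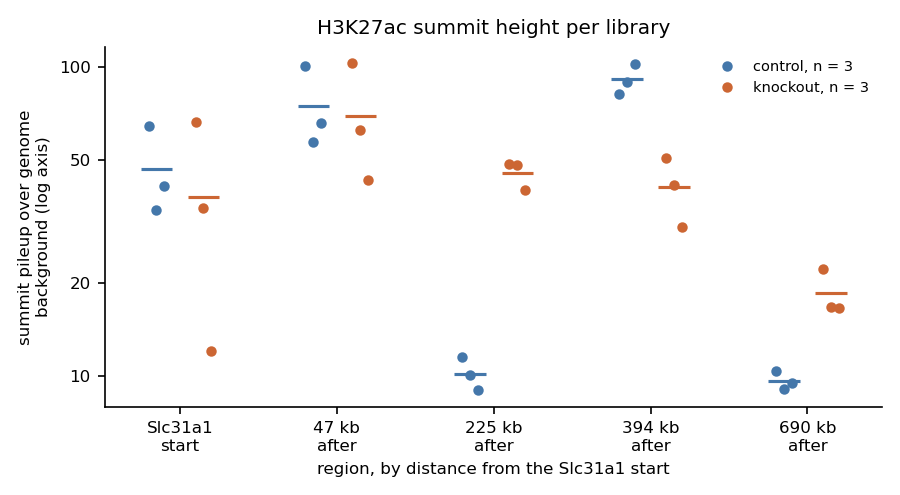
H3K27ac summit height, the pileup over the genome-wide background of the library, on a log axis for 5 regions present in every list, named by distance from the Slc31a1 start; points are single libraries and lines are means (n = 3 per genotype). The genotypes overlap at the Slc31a1 start and at the next region, and separate at 225.1 kb (higher in knockouts), 394.3 kb (lower) and 689.8 kb (higher, but with a limma adjusted p of 0.0516).

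The flank stands between stretches with little H3K27ac. Neither the 1.68 Mb before the window nor the 1.68 Mb after the flank held a bin with enough covered lists to be tested. Chromosome 4 as a whole had 1114 tested bins, of which 10 were higher and 24 lower in knockouts, so that the flank held 4 of the 10 and 1 of the 24.

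H3K27me3 in the flank showed no call. Its 61 peaks merged into 31 regions, of which 3 were in all 4 lists, at chr4:62878479-62880080, chr4:63129290-63131825 and chr4:63132081-63136446. In the last, 2152 and 4082 bases were covered in controls and 2148 and 4366 in knockouts, so that the values overlapped. Both knockout lists and neither control list held a peak in 1 region (3.23%), against 9.94% of 63341 regions in the genome, and the reverse in 0, against 0.0426%. That region, chr4:63105024-63106162, had 953 and 944 covered bases in knockouts 1 and 2. The count for knockouts became 5 without control 2 and 13 without knockout 1, and the count for controls became 7 without control 1. Of 14 bins tested in the flank by limma, 0 were higher, against 0.257% of 21034 bins in the genome, and 0 were lower, against 0.0428%. At an unadjusted p under 0.05 limma gave 1 higher (7.14%), against 7.36% of all tested bins, and 0 lower, against 3.15%. The median log2 change over the 14 bins was -0.49, against 0.78 over all tested bins, and it was 0.55 against 1.82 with no centring.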

How the data were processed

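H3K27ac was profiled in 3 control and 3 knockout samples and H3K27me3 in 2 and 2, and each has 1 peak list, so peaks were called per library. Per the submitters' processing notes, Bowtie2 2.2.4, deepTools 3.5.1, MACS2, ChIPseeker 1.30.3 and HOMER 4.11 were used with build mm39. Settings and the use of IgG as background are not given in the sources used here. The authors deposited for each peak a fold enrichment over local background (a ratio), p and q values as −log10, and a score that is a whole number derived from the −log10 p. These are the authors' values for a peak within its own list. Depth is unknown.

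The members, lists and tests were chosen with earlier results of these data known. The regions named were those of the window, those found in 1 genotype only, bins past the threshold and the 3 strongest found in every list of a mark. Regions are the merged union of the peaks of a mark (overlap from 1 bp). Bases under peaks were compared by two-sided exact permutation tests, and 10 kb bins by limma 3.58.1 in R 4.3.3 on log2(covered bases + 100), centred on the median, with trended and robust variances and Benjamini-Hochberg adjustment over all tested bins of a mark (threshold 0.05). Summit heights, added after the data were seen, were read back from fold and −log10 p for 99.99% to 100% of the peaks of a list and tested in the same way. The scripts were tested on simulated data. Promoters came from RefSeq (GRCm38.p6), where both members matched.

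Same-numbered H3K27ac libraries deviated together in summit height (correlations 0.715, 0.29 and 0.284), but so did control 2 with knockout 3 (0.512) and control 3 with knockout 2 (0.4). The numbers come from the titles of the labels. In covered bases the correlations were 0.246, 0.053 and 0.0102, and in H3K27me3 0.00261, under 0.1 for all but the first pair. Blocked values are therefore given beside the H3K27ac results they change.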

Additional observations from a re-analysis of the deposited data

How the results depend on the processing

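The difference in covered bases ranged over the fits without 1 library from -872.7 to 13.3 in the window, from -207.5 to 151.0 in Slc31a1, from -2328 to 10830 in the H3K27ac of the flank and from -2092 to 16198 in its H3K27me3. Without control 1 the difference in Slc31a1 was 27.2, and without knockout 2 that of the H3K27me3 of the flank was -2004. Per Mb under the peaks of a list, the H3K27me3 difference in the flank was -235.5. Without 1 library, H3K27ac regions of controls only numbered 1 to 5, and H3K27me3 regions 0 to 7 for controls and 1 to 13 for knockouts. With only the strongest 75% of peaks the counts were 2 and 3 for H3K27ac (controls, knockouts) and 0 for the H3K27me3 of knockouts. With lists of equal length the H3K27me3 counts were 1 and 0.

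Of H3K27ac bins, 0 were lower and 1 higher with a pseudocount of 10 bases, 7 were higher with 1000, 2 were lower with quantile normalization and 2 with no centring, and 3 were lower and 7 higher in bins of 5 kb. With the replicate block, 0 were lower and 1 higher. Over the fits without 1 library, 0 to 3 H3K27ac bins were lower and 0 to 5 higher. H3K27me3 bins called were 0 to 2 lower and 0 to 1 higher, the highest counts arising without control 2, when the lone control is assumed to vary like the knockouts. Summit heights called were 2 higher with no centring, 4 lower and 4 higher with the replicate block, and 0 to 1 lower and 1 to 2 higher without 1 library. The causes were not tested. A peak list holds no counts, so a difference below the caller's threshold cannot be seen.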
